A study of Homo sapiens with 24 samples.

Results

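The genes described here encode the WNT ligands, their Frizzled receptors and the core of the signalling pathway behind them. They are 19 WNT ligands, 10 Frizzled receptors, 5 co-receptors or transducers (LRP5, LRP6, AXIN1, AXIN2 and CTNNB1) and the 4 DNA-binding factors LEF1, TCF7, TCF7L1 and TCF7L2. A peak was taken when the deposited annotation gave 1 of these 38 genes as its nearest transcription start site (TSS), at any distance; such a peak is said below to name the gene. The rule took 111 of 51504 BRG1 peaks, 57 of 22157 BRM peaks and 12 of 6489 SNF5 peaks, 180 of 80150 in all. The rule itself uses the gene names of the annotation and no peak width or count, but the genes were picked with earlier results of these data known.

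The series profiled the SWI/SNF chromatin remodelling complex by chromatin immunoprecipitation and sequencing in RWPE1, an established line from benign human prostate epithelium. The cells had been infected with a lentivirus for the long noncoding RNA SCHLAP1, known from prostate cancer, or for the control LACZ, and had grown under blasticidin at 2.5 ug/mL for 1 week or longer. The 24 samples make 12 groups of 2: the subunits BRG1, BRM and SNF5 with an input, from SCHLAP1 cells cut by MNase, and 3 histone marks (H3K4me1, H3K4me3, H3K27ac) with an input, from sonicated SCHLAP1 and LACZ cells. The results below rest on the 3 subunit peak lists of SCHLAP1 cells; no subunit profile of LACZ cells is used, so nothing here compares cells with and without SCHLAP1. Cells were fixed in 0.3% formaldehyde for 30 min and quenched in 125 mM glycine. Whether the infected lines are clones or mixed populations is not stated in the labels.

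WNT proteins are secreted, lipid-modified ligands that bind Frizzled receptors together with the co-receptors LRP5 or LRP6. In the canonical branch this stops the destruction complex, built on the scaffolds AXIN1 and AXIN2, from degrading beta-catenin, the product of CTNNB1, which then acts with the TCF and LEF factors on target genes. In the prostate the pathway is known for its part in epithelial budding and growth and for being altered in cancer. SWI/SNF moves nucleosomes; BRG1 and BRM are its alternative ATPases, and SNF5 is a core subunit.

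The promoters of members that all 3 lists named are shown first, to place the peaks on the sequence. WNT10A, FZD1, FZD5, LRP6 and TCF7L2 were named by promoter peaks in all 3 lists. These 5 of 38 genes (13.2%, 95% exact binomial interval 4.41 to 28.1) are a share near that of all protein-coding genes, 15.7%. A RefSeq promoter window (GRCh38.p14, 250 bases before to 50 after the start) was matched for 4 of them. Each window is written 5′ to 3′ on the strand of the gene, with the bases inside an SNF5 peak in capitals: WNT10A at chr2:218880602-218880901 (plus strand), FZD1 at chr7:91264183-91264482 (plus), TCF7L2 at chr10:112949997-112950296 (plus) and FZD5 at chr2:207769857-207770156 (minus).
WNT10A: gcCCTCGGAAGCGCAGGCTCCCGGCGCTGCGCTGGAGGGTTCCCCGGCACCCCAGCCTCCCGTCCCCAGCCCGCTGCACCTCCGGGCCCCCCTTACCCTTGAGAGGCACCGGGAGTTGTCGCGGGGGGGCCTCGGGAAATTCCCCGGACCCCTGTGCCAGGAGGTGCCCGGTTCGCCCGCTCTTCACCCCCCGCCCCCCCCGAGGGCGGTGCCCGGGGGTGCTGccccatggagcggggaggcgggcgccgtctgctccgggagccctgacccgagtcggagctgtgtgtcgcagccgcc
FZD1: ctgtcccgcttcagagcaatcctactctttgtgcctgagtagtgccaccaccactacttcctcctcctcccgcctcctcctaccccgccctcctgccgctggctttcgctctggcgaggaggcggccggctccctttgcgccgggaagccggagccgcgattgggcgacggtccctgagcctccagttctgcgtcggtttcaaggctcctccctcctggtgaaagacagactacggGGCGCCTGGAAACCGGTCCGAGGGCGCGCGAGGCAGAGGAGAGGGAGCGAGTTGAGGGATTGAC
TCF7L2: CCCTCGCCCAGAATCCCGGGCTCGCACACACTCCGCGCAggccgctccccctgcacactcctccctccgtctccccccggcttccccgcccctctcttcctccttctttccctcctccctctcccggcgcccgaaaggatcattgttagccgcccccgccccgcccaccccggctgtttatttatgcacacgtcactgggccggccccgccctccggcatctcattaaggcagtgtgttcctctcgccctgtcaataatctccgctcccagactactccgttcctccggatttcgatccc
FZD5: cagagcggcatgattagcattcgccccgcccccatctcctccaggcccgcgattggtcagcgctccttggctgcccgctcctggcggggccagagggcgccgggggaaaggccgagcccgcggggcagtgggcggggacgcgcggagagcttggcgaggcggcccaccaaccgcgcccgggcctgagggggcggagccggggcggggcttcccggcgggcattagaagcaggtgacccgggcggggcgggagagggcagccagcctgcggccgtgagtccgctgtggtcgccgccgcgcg
The SNF5 peaks took in 222 of the 300 bases at WNT10A, 64 at FZD1 and 39 at TCF7L2. The FZD5 window held none, because it lies in the space between a pair of SNF5 peaks, 1 on each side. At WNT10A, FZD1 and FZD5 all 300 bases lay inside a BRG1 peak and inside a BRM peak, against 220 and 151 bases at TCF7L2.

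A pair of Frizzled genes that no peak named is shown for contrast: FZD4 at chr11:86955346-86955645 (minus) and FZD9 at chr7:73433528-73433827 (plus).
FZD4: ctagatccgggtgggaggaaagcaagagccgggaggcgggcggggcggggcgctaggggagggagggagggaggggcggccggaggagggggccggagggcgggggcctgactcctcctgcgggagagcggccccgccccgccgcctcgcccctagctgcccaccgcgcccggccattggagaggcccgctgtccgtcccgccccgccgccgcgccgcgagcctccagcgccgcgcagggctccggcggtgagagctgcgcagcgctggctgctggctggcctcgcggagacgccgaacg
FZD9: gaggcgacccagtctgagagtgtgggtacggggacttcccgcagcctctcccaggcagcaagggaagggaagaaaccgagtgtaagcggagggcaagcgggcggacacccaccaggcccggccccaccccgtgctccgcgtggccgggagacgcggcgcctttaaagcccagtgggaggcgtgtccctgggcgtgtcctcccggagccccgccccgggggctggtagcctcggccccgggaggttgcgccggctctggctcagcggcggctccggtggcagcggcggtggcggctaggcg
The windows are of like composition: FZD4 had 79.7% GC and 40 CpG dinucleotides, FZD9 73.7% GC and 31 CpG. All 300 bases at FZD4 nevertheless lay inside a BRG1 peak and inside a BRM peak, both of which the annotation gave to a noncoding neighbour. The FZD9 window met no peak of any list, and its start lay 33577 bp from the nearest BRG1 peak, 87687 bp from the nearest BRM peak and 88283 bp from the nearest SNF5 peak.

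The 3 lists hold positions and widths but no read counts, scores or replicate values. The depth behind them is unknown, the spread between replicates cannot be given, and a gene without a peak is one without a called peak. Across protein-coding genes the median number of peaks within 1 Mb was 54 for BRG1, 21 for BRM and 6 for SNF5. BRG1 named 63.4% of all protein-coding genes, 5 of 6 markers of basal prostate epithelium, 2 of 5 luminal markers (KRT8 and KRT18) and 3 of 5 markers of blood, endothelium and stroma. Counts this small do not separate the marker groups from genes at large. Nor do the peaks follow the groups gene by gene: luminal KRT8 had 8 BRG1 peaks, 7 of them at promoters and the widest 2250 bp, and basal KRT5 had 4, the widest 3479 bp. Basal ITGA6 had no BRG1 peak and basal TP63 none at a promoter. Peaks do not measure expression, and the 3 genes of other cells were named by non-promoter peaks, the widest of each 345 to 752 bp.

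BRG1 peaks named most WNT pathway genes, while BRM and SNF5 peaks named shares near those of genes at large. BRG1 named 31 of the 38 genes (81.6%, 95% exact binomial interval 65.7 to 92.3), against 63.4% of the 20033 protein-coding genes. BRM named 21 (55.3%, 38.3 to 71.4; 49.5% of all genes) and SNF5 named 8 (21.1%, 9.55 to 37.3; 19.6% of all genes). The intervals cover counting error only, and genes are not independent trials. The share for BRM and that for SNF5 thus lay within their intervals of the background, and the lower bound for BRG1 lay above it. The members were longer than other genes, with a median span of 31621.5 bp against 24130 bp, and the part of length in the BRG1 count was not tested.

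**Figure D1:**
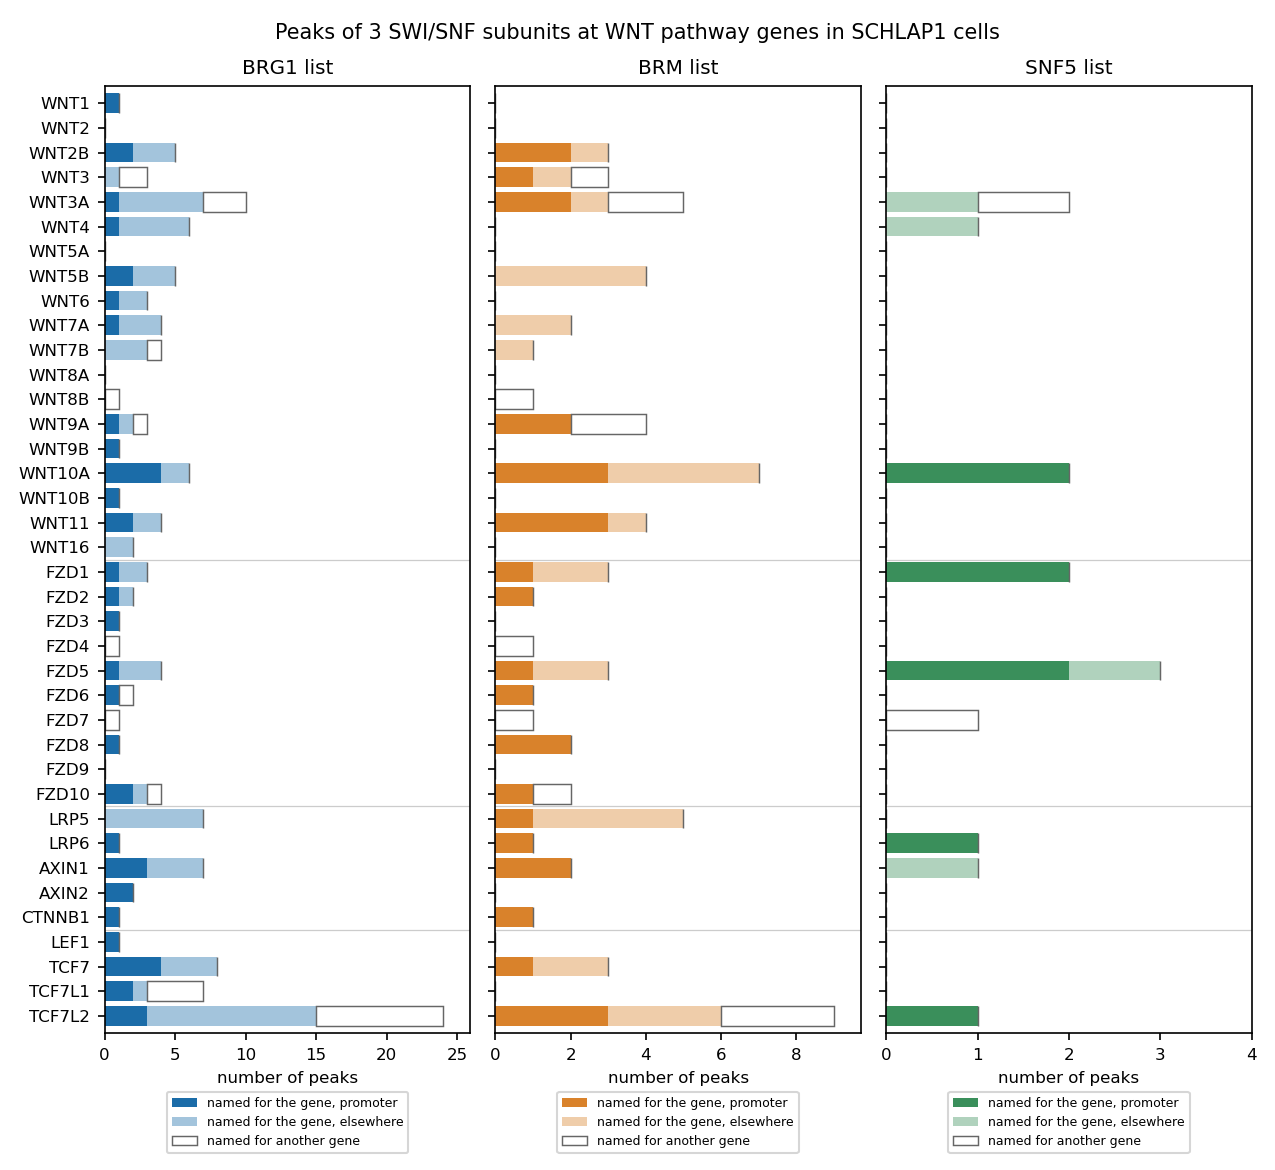
Number of peaks at each of the 38 genes in the BRG1, BRM and SNF5 lists (x axis, peaks; y axis, genes ordered by role). Dark bars are promoter peaks that name the gene, pale bars other peaks that name it, and open bars peaks within 1 kb of the gene that name another gene; TCF7L2 has 15 named BRG1 peaks and FZD5 the most SNF5 peaks, 3.

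Promoter peaks, those whose middle lies within 1000 bp of the TSS, named shares whose intervals all held the background, BRG1 included. BRG1 promoter peaks named 27 genes (71.1%, 54.1 to 84.6; 55.5% of all genes), BRM promoter peaks 18 (47.4%, 31.0 to 64.2; 45.6%) and SNF5 promoter peaks 5 (13.2%, 4.41 to 28.1; 18.1%). All 3 lists named 7 genes: WNT3A, WNT10A, FZD1, FZD5, LRP6, AXIN1 and TCF7L2 (18.4%; 17.9% of all genes). No list named 7 others: WNT2, WNT5A, WNT8A, WNT8B, FZD4, FZD7 and FZD9 (18.4%; 33.7% of all genes). All 21 genes that BRM named were also named by BRG1, as were all 8 that SNF5 named; among all genes the shares were 95% and 95.2%. Of the 31 genes that BRG1 named, BRM named 67.7%, against 74.2% among all genes, and the 10 it left out were WNT1, WNT4, WNT6, WNT9B, WNT10B, WNT16, FZD3, AXIN2, LEF1 and TCF7L1.

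The BRG1 count also moved when the lists were made equally long. When each list was reduced to as many of its widest peaks as the SNF5 list holds, 6489, BRG1 named 11 of the genes (28.9%, 15.4 to 45.9; 20.5% of all genes), BRM 7 (18.4%, 7.74 to 34.3; 22.6%) and SNF5, whose list was left whole, 8. Each background then lay within the interval. This reduction changes length and width together, since it keeps BRG1 peaks of 1509 bp or more and BRM peaks of 781 bp or more.

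**Figure D2:**
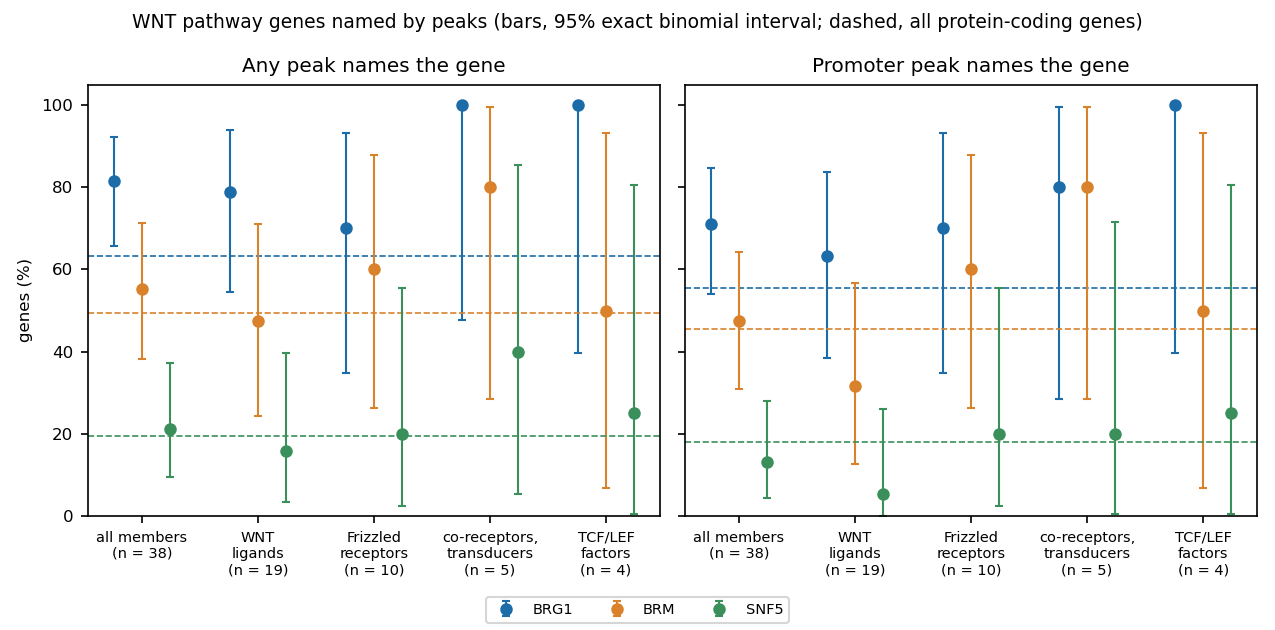
Share of genes (y axis, percent) named by any peak (left) or by a promoter peak (right), for all 38 genes and by role (x axis). Points are shares, bars 95% exact binomial intervals, and dashed lines the share of all protein-coding genes in the same list; the bars of the small role groups span most of the axis.

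Among the 19 ligands, BRG1 named 15, BRM 9 and SNF5 3, with promoter peaks at 12, 6 and 1. The naming shares were 78.9% (54.4 to 93.9), 47.4% (24.4 to 71.1) and 15.8% (3.38 to 39.6). Among all genes they were 63.4%, 49.5% and 19.6%, each within its interval. The promoter shares of all genes, 55.5%, 45.6% and 18.1%, lay within the intervals of the ligands too. WNT10A, a ligand known from the development of teeth and skin appendages, stood at the head. It had 6 BRG1 peaks, 7 BRM peaks, the most of any member in that list, and 2 SNF5 peaks. Its BRG1 peaks ran from 497 to 2389 bp; 4 were promoter peaks 136 to 425 bp from a TSS, and the widest (chr2:218893942-218896330) was an intron peak 1913 bp from one. Its SNF5 peaks, 222 bp (chr2:218880604-218880825) and 191 bp (chr2:218883668-218883858), lay inside BRG1 peaks of 1820 and 2047 bp and met BRM peaks of 919 and 1159 bp. Beyond the end of the gene, the widest BRG1 peak and the one after it (2062 bp) began 14 and 2474 bp past the RefSeq span and met BRM peaks but no SNF5 peak.

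WNT6 lies beside WNT10A, and their spans overlap. It was named by 3 BRG1 peaks of 352 to 730 bp and by no BRM or SNF5 peak. The nearest BRM and SNF5 peaks lay 5926 and 6371 bp from its span and named WNT10A. Each gene had 116 BRG1, 67 BRM and 22 SNF5 peaks within 1 Mb, which is nearly the same stretch for both. The other neighbouring ligands also differed. WNT3A had 7 BRG1, 3 BRM and 1 SNF5 peaks and WNT9A, 59065 bp away, 2, 2 and 0. WNT3 was named by 1, 2 and 0 peaks and WNT9B, 14496 bp away, by 1, 0 and 0. WNT1, first found as a site of viral insertion in mouse mammary tumours, and WNT10B, 6586 bp away, were alike with 1 BRG1 peak each.

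WNT3A, a standard activator of beta-catenin signalling, had its SNF5 peak in an intron (chr1:228013635-228013817, 183 bp), 6673 bp from the TSS, inside a BRG1 peak of 953 bp and meeting a BRM peak of 372 bp. Of its 7 BRG1 peaks (355 to 953 bp), 1 was at the promoter, 288 bp from the TSS, and 6 were in introns 2056 to 31215 bp away. Its BRM promoter peaks, 652 and 341 bp, met no BRG1 peak but lay 496 and 144 bp from one. Within the gene a further 3 BRG1, 2 BRM and 1 SNF5 peaks were named for the noncoding AL136379.1.

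WNT4, which acts in kidney and female reproductive tract development, was named by BRG1 and SNF5 but not by BRM. Its 6 BRG1 peaks were 333 to 1118 bp wide: 1 promoter peak 649 bp from the TSS, 4 intron peaks and 1 distal peak 28488 bp away. The widest (chr1:22136892-22138009) held the SNF5 peak (chr1:22137378-22137532, 155 bp). The nearest BRM peak lay 62672 bp from the gene and named CDC42.

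WNT9A had a BRG1 peak of 2041 bp (chr1:227945454-227947494) and a BRM peak of 1922 bp (chr1:227946035-227947956) at 1 site. The annotation called the first an intron peak, 1421 bp from the TSS, and the second a promoter peak, 900 bp away, so the site counts as a promoter in 1 list and not in the other. WNT5B, a ligand best known for signalling without beta-catenin, had 5 BRG1 peaks, the widest of 1520 bp (chr12:1518287-1519806) lying 97250 bp outside its RefSeq span. Its 4 BRM peaks were all non-promoter peaks 9910 to 10697 bp from a TSS, and none lay within 1 kb of the span. WNT2B had 5 BRG1 peaks, the widest of 1375 bp (chr1:112508026-112509400), and 3 BRM peaks of 342 to 664 bp, all of which met BRG1. WNT11, known for cell movements in the embryo, had 4 peaks in both lists, of 389, 710, 748 and 765 bp in the BRG1 list and 326 to 457 bp in the BRM list; 3 of the former are wider than the median of the whole BRG1 list, 667 bp, and the latter are all narrower than that of the BRM list, 547 bp. WNT7A had 4 BRG1 and 2 BRM peaks of 368 to 947 bp, and WNT7B 3 BRG1 peaks and 1 BRM peak of 428 to 522 bp.

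The ligands named by BRG1 alone had few peaks, 1 to 3 a gene: 1 each at WNT1 (367 bp), WNT9B (365 bp) and WNT10B (902 bp), 2 at WNT16 (432 and 746 bp) and the 3 at WNT6. The peaks of WNT1 and WNT9B are close to the narrowest of the whole BRG1 list, 331 bp, while those of WNT10B and the wider ones of WNT16 and WNT6 pass its median of 667 bp. WNT3, like WNT10A and FZD8, was named by more BRM than BRG1 peaks. Its BRM peaks of 310 bp, 222 bp from the TSS, and 505 bp lay 6141 and 9644 bp from the nearest BRG1 peak. BRG1 peaks of 542 and 947 bp and a BRM peak of 310 bp in its span named NSF. With any peak within 1 kb of the span counted, WNT3 had 3 BRG1 and 2 BRM peaks. By the same count WNT10A had 5 and 4, and FZD8 1 and 2. Few BRM peaks stood apart from BRG1, since 87.7% of the 57 BRM peaks (76.3 to 94.9) met BRG1, against 92.2% in the whole list. The 7 that did not were at WNT3 (2), WNT3A (2), WNT5B (1) and LRP5 (2).

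Of the 4 ligands that no list named, WNT5A, the prototype ligand of signalling without beta-catenin, lay in the emptiest surroundings. The nearest BRG1 peak was 573564 bp from the gene, and the gene sits in a stretch of 1.67 Mb without a BRG1 peak, 3.33 Mb without a BRM peak and 28.4 Mb without an SNF5 peak. WNT2, a ligand of lung development, had its nearest BRG1 peak 1197 bp away (named for AC006326.1) and its nearest BRM peak 321034 bp away. WNT8A was 43295 bp from the nearest BRG1 peak, among surroundings with 65 BRG1 and 27 SNF5 peaks within 1 Mb. WNT8B held 1 BRG1 and 1 BRM peak, of 767 and 478 bp, in an exon and named for SEC31B.

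By median, the Frizzled receptors held the widest BRG1 promoter peaks of any role. The widest member promoter peak was at WNT9A in the BRM list (1922 bp) and at LRP6 in the SNF5 list (299 bp). BRG1 named 7 of the 10, BRM 6 and SNF5 2, and the counts with promoter peaks were the same. The intervals were 34.8 to 93.3%, 26.2 to 87.8% and 2.52 to 55.6%. They held the shares of all genes, 63.4%, 49.5% and 19.6% for any peak and 55.5%, 45.6% and 18.1% for promoter peaks. The 8 BRG1 promoter peaks of Frizzled genes had a median width of 1491 bp, against 710 bp over the 43 BRG1 promoter peaks of all members and 876 bp over the whole list. Of their 15 BRG1 peaks 10 met BRM (66.7%, 38.4 to 88.2), against 35.7% of all BRG1 peaks. None was in an intron, where 37.7% of all BRG1 peaks lay. Promoter peaks made up 53.3% of the 15, against 37.3% of the whole list. In the whole list 61.6% of BRG1 promoter peaks met BRM, and 20.2% of the others. The part of place in the Frizzled share was not tested. Frizzled genes are short, with a median span of 5740.5 bp, and several have no intron.

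FZD8 had the widest BRG1 peak that named a member, 2680 bp at 205 bp from the TSS (chr10:35641146-35643825), with BRM peaks of 1449 and 711 bp under it and its nearest SNF5 peak 145287 bp from the gene. FZD5, a receptor needed in eye and gut development, had a BRG1 promoter peak of 2296 bp (chr2:207768099-207770394), BRM peaks of 999 and 669 bp and the 3 SNF5 peaks of 151 bp (chr2:207768191-207768341), 202 bp (chr2:207769630-207769831) and 151 bp (chr2:207770162-207770312), the most of any member. The 3 SNF5 peaks thus sat apart within 1 BRG1 peak, their middles at 7.27%, 71.1% and 93.1% of its width. Those of 151 bp have the narrowest width in the whole SNF5 list. FZD1 had a BRG1 peak of 1818 bp (chr7:91263494-91265311) and BRM over 1285 bp. Its SNF5 sites were 242 bp (chr7:91264419-91264660) and, again at the narrowest width, 151 bp (chr7:91264712-91264862). Its BRG1 peak stood in thin surroundings, with 21 BRG1 peaks within 1 Mb against the median of 54.

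FZD6 and FZD3, receptors of planar cell polarity, differed. FZD6 had a BRG1 peak of 1542 bp (chr8:103298746-103300287) and a BRM peak of 524 bp. A further BRG1 peak of 689 bp over the start edge of its span was named for BAALC-AS1. FZD3 had a BRG1 peak of 1269 bp (chr8:28493778-28495046) and its nearest BRM peak 47926 bp away. FZD2 had a BRG1 promoter peak of 1440 bp (chr17:44556319-44557758) and a BRM peak of 320 bp. FZD10 had 3 BRG1 peaks of 382 to 401 bp and a BRM peak of 399 bp, and a further BRG1 peak of 759 bp and BRM peak of 1088 bp, 504 and 311 bp outside its span, were named for FZD10-AS1.

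The widest Frizzled site was not named for its Frizzled gene. At FZD7, a receptor known from stem and progenitor cells, a BRG1 peak of 3131 bp (chr2:202032484-202035614) and a BRM peak of 2565 bp (chr2:202032742-202035306) covered the start edge of the gene span. An SNF5 peak of 301 bp (chr2:202033019-202033319) lay 536 bp outside it. All 3 were promoter peaks of the noncoding AC069148.1 in the annotation, 510, 485 and 365 bp from its TSS. The BRG1 peak is wider than any that named a member. At FZD4, the receptor of retinal vessel growth, the covering BRG1 peak was 1756 bp (chr11:86955064-86956819) and the BRM peak 1251 bp, both named for AP001528.1 at 147 and 99 bp. FZD9, in the region deleted in Williams syndrome, was the 1 Frizzled gene without a BRG1 peak within 1 kb.

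Counting any peak within 1 kb of the RefSeq gene span, whatever it named, gave BRG1 34 of 38 genes (89.5%; 70.1% of all genes), BRM 22 (57.9%; 57% of all) and SNF5 8 (21.1%; 24.2% of all). For Frizzled genes the counts became 9, 8 and 3 of 10. For ligands they became 16, 8 and 3 of 19. The 8 genes for SNF5 are not the same 8: FZD7 entered and AXIN1, whose SNF5 peak lies 1341 bp outside its span, dropped out. Genes without a BRG1 peak by this count were WNT2, WNT5A, WNT8A and FZD9.

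**Figure D3:**
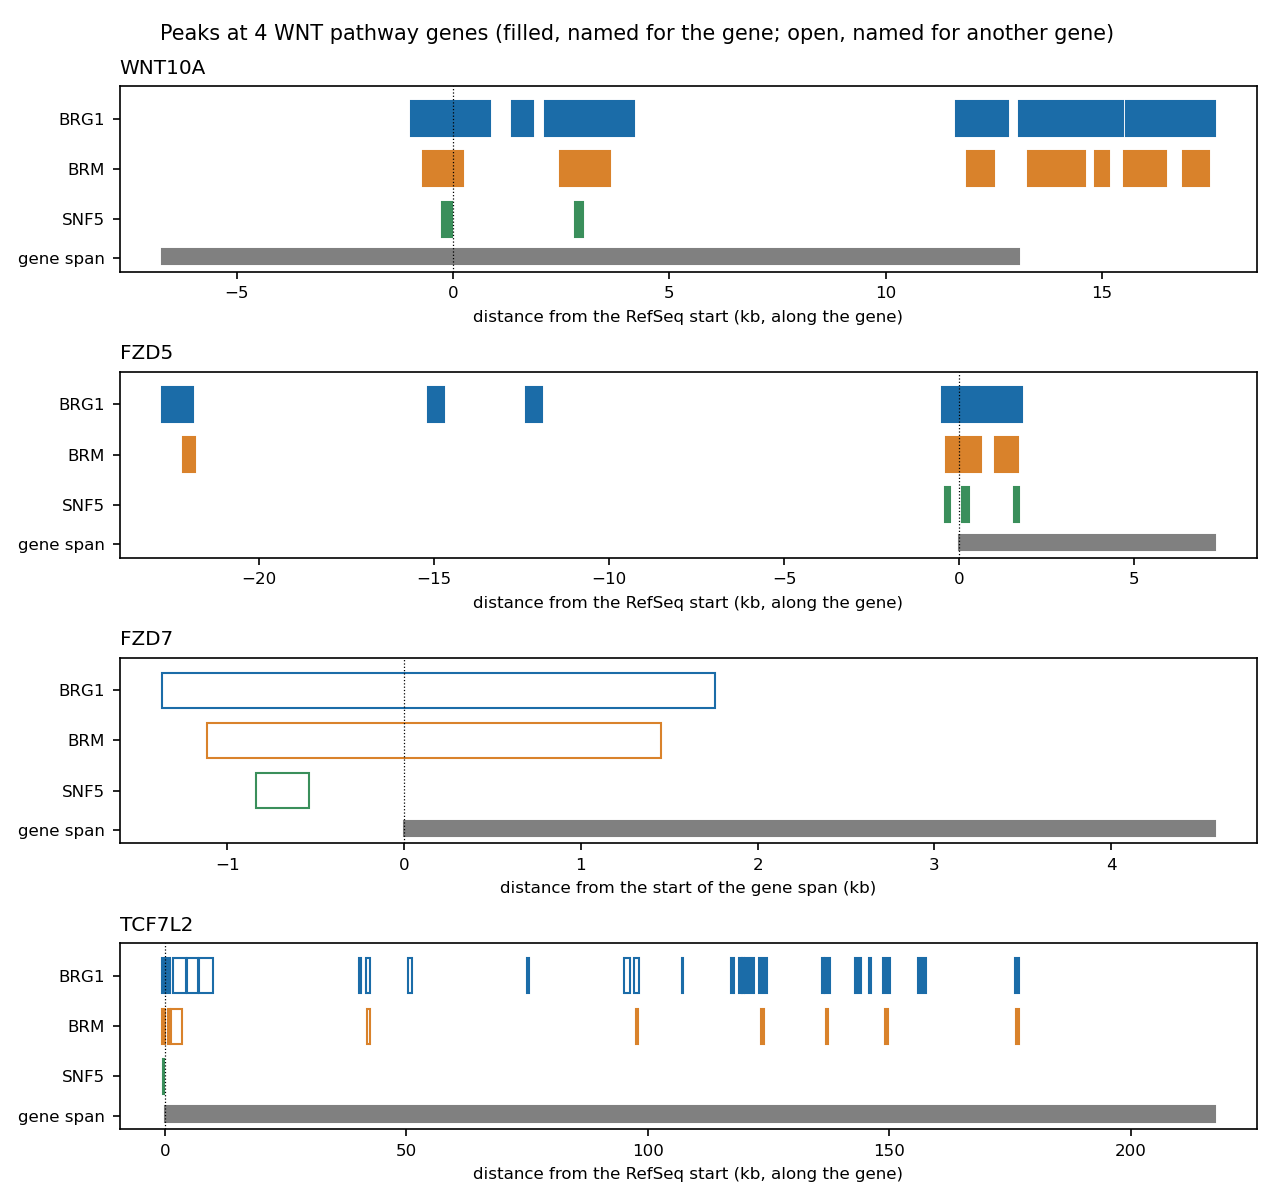
Peaks of BRG1, BRM and SNF5 at WNT10A, FZD5, FZD7 and TCF7L2, with the RefSeq gene span in grey (x axis, kb from the RefSeq start along the gene, or from the start edge of the span at FZD7). Filled boxes name the gene and open boxes another gene: the FZD7 boxes, 3131 bp wide for BRG1, are all open, and so are 3 wide BRG1 boxes just after the TCF7L2 start.

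The co-receptors and transducers were named by BRG1 in 5 of 5 cases, by BRM in 4 and by SNF5 in 2. The intervals, 47.8 to 100%, 28.4 to 99.5% and 5.27 to 85.3%, held the shares of all genes, 63.4%, 49.5% and 19.6%. LRP6 had 1 peak in each list at its promoter: BRG1 2103 bp (chr12:12265625-12267727), BRM 934 bp and SNF5 299 bp (chr12:12266688-12266986), the widest SNF5 peak of a member and the closest to a TSS, 23 bp. LRP5, its paralog, had a different layout, with 7 BRG1 peaks of 472 to 2007 bp. All were annotated as intron peaks, their middles 1380 to 41934 bp from the TSS. The widest (chr11:68313063-68315069) met a BRM peak of 2114 bp, the widest BRM peak that named a member. The near edges of this BRG1 peak and this BRM peak lay 472 and 325 bp from the RefSeq start. LRP5 also had a BRM promoter peak (chr11:68445887-68446211), 929 bp from a TSS. No SNF5 peak named LRP5; the nearest, named for PPP6R3, lay 6672 bp from the gene.

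AXIN1 had 7 BRG1 peaks of 340 to 1038 bp: 3 promoter peaks 113 to 571 bp from a TSS, 2 intron peaks 18063 and 18871 bp away and 2 distal peaks 1556 and 2106 bp away. The widest was at chr16:345919-346956 and met a BRM peak of 622 bp. Its SNF5 peak (chr16:354064-354221, 158 bp) lay inside a BRG1 peak of 392 bp and met no BRM peak. AXIN2, a scaffold that is itself a well-known target of the pathway, had 2 BRG1 promoter peaks of 356 and 363 bp and its nearest BRM peak 391161 bp away. CTNNB1 had a BRG1 peak of 684 bp centred on its TSS and a BRM peak of 310 bp, the narrowest width in the BRM list.

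The TCF and LEF factors were named by BRG1 in 4 of 4 cases, each with a promoter peak, by BRM in 2 and by SNF5 in 1. The intervals, 39.8 to 100%, 6.76 to 93.2% and 0.631 to 80.6%, held the shares of all genes, 63.4%, 49.5% and 19.6%. That of BRG1 promoter peaks, also 39.8 to 100%, held the 55.5% of all genes. TCF7L2 led the members in the BRG1 list with 15 peaks of 335 to 1810 bp, 13.5% of the 111 BRG1 member peaks. They were 3 promoter peaks 12, 66 and 366 bp from a TSS and 12 intron peaks 18575 to 68133 bp away. The widest was at chr10:113070413-113072222. It had 6 BRM peaks of 409 to 642 bp, all meeting BRG1, and 1 SNF5 peak of 152 bp (chr10:112949884-112950035) inside the BRG1 promoter peak of 670 bp. Its span of 217432 bp held a further 9 BRG1 and 3 BRM peaks that named AL158212.2 or RPS15AP30. Among them were BRG1 peaks of 2741, 2449 and 2893 bp in a row (chr10:112951824-112954564, chr10:112954707-112957155 and chr10:112957235-112960127), each wider than any TCF7L2 peak that bore its name.

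TCF7 followed with 8 BRG1 peaks of 331 to 1862 bp: 4 promoter peaks 0 to 438 bp from a TSS, 1 intron peak 1796 bp and 3 distal peaks 3858 to 14159 bp away. The widest (chr5:134137837-134139698) met a BRM peak of 441 bp, 44 bp from a TSS. TCF7L1, which mostly acts as a repressor, had 3 BRG1 peaks of 460, 604 and 1500 bp, the last in an intron (chr2:85287882-85289381), and 4 more in its span named AC093162.1. LEF1 had 1 BRG1 promoter peak of 499 bp. Neither TCF7L1 nor LEF1 was named by BRM, whose nearest peaks lay 16469 and 3638 bp from the genes.

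The 6 genes TCF7L2, TCF7, AXIN1, LRP5, WNT3A and WNT10A held 45.0% of the 111 BRG1 peaks; WNT4 had as many as WNT10A. The median named member had 3 BRG1 and 2 BRM peaks, against 2 and 1 for all named genes.

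Peaks shared between lists were wide. The 7 BRG1 peaks that met both BRM and SNF5 (at WNT3A, WNT10A, FZD1, FZD5, LRP6 and TCF7L2) had a median width of 1820 bp, the 40 that met BRM alone 880 bp, and the 62 that met neither 498 bp. In the whole list the medians were 1606, 1038 and 510 bp. Of BRG1 peaks 42.3% met BRM (33.0 to 52.1; 35.7% of all) and 8.11% met SNF5 (3.77 to 14.8; 9.58% of all). Of the BRM peaks 14.0% met SNF5 (6.26 to 25.8; 21.9% of all). All 12 SNF5 peaks met BRG1 (96.1% of all), and 10 met BRM (83.3%, 51.6 to 97.9; 91.9% of all); those of AXIN1 and WNT4 did not. A wide peak has more room to meet another, and the part of width in these shares was not tested.

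Away from promoters, a larger share of member BRG1 peaks met BRM than in the whole list, though peaks are not independent trials. Of the 43 BRG1 promoter peaks 53.5% met BRM (37.7 to 68.8), against 61.6% of all BRG1 promoter peaks. Of the 68 others 35.3% did (24.1 to 47.8), against 20.2%. Many of these peaks share a gene, as at LRP5, TCF7L2 and WNT10A, so the interval may be too narrow. Promoter peaks made up 38.7% of BRG1 (29.6 to 48.5; 37.3% of all), 50.9% of BRM (37.3 to 64.4; 62.8% of all) and 66.7% of SNF5 peaks (34.9 to 90.1; 81.3% of all). Introns held 45.0% of the BRG1 peaks (35.6 to 54.8; 37.7% of all) and distal sites 15.3% (9.18 to 23.4; 21.9% of all). The median width was 617 bp in the BRG1 list, 479 bp in the BRM list and 170.5 bp in the SNF5 list, against 667, 547 and 212 bp over each whole list.

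**Figure D4:**
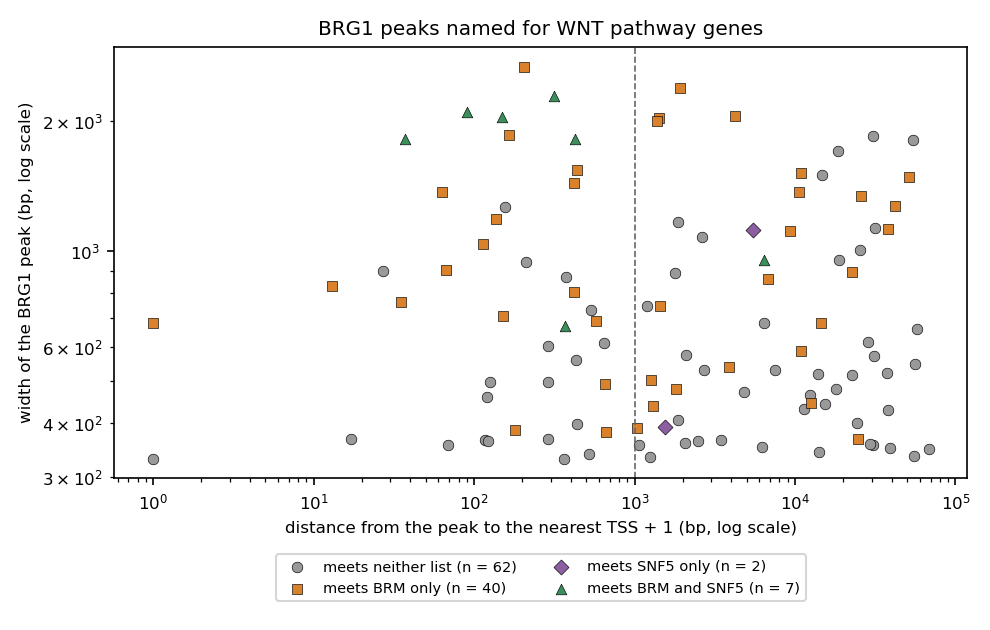
Width of each of the 111 BRG1 peaks (y axis, bp, log scale) against its distance from the nearest TSS plus 1 bp (x axis, log scale); symbols show which other lists the peak meets, and the dashed line marks 1000 bp. Peaks that meet BRM and SNF5 have a median width of 1820 bp and sit mostly left of the line, with 6 of 7 at promoters.

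Among the 28 members with a RefSeq promoter window, the share of CpG-rich windows that met BRG1 had an interval below the share of all CpG-rich windows. Of 34 promoter windows matched for 28 members, 15 met a BRG1 peak (44.1%, 27.2 to 62.1; 54.7% of 22198 windows of protein-coding genes), 11 a BRM peak (32.4%; 43.2%) and 3 an SNF5 peak (8.82%; 13.3%). Most member windows are rich in CpG, with a median of 30.5 against 21 over all windows, and among all windows with 20 or more CpG 77.3% met BRG1. Among the 25 such member windows 13 did (52.0%, 31.3 to 72.2). By role these were 4 of 14 windows of ligands (28.6%, 8.39 to 58.1), 4 of 5 of Frizzled receptors (interval 28.4 to 99.5%), 2 of 3 of co-receptors or transducers and 3 of 3 of TCF or LEF factors. For BRM the counts at such windows were 4 of 14 for ligands and 4 of 5 for Frizzled receptors, against 65.2% over all. The intervals of ligands and Frizzled receptors overlap, only 5 of the 10 Frizzled genes have a window, and the difference between the roles was not tested.

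For most ligands with a CpG-rich start outside a BRG1 peak, the peak lay close by. The start was 128 bp from the nearest BRG1 peak at WNT1, 160 bp at WNT3A, 329 bp at WNT6, 379 bp at WNT9A, 477 bp at WNT4 and 834 bp at WNT16, and in each case that peak named the gene. The same held for AXIN1 at 178 bp and LRP5 at 472 bp. At WNT3 the distance was 6004 bp, at WNT2 48804 bp and at WNT5A 589247 bp for the nearer of its starts. Several of these windows are extreme in composition: WNT3A, WNT4, WNT7A, WNT9A and LRP5 have 80% GC or more, and 1 of these 5, WNT7A, met a BRG1 peak. Over all windows at that GC content 40.6% met BRG1, against 65.3% of those with 50 to 80% GC. What the GC content contributed to these calls was not tested.

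**Figure D5:**
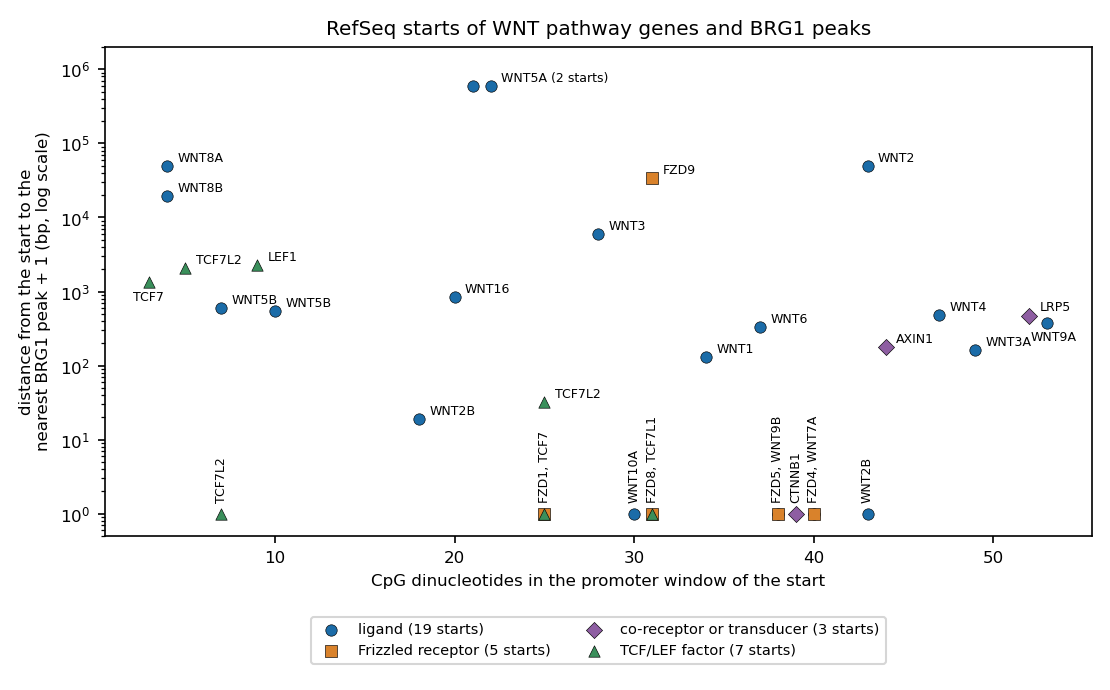
Distance from each of 34 RefSeq starts to the nearest BRG1 peak plus 1 bp (y axis, bp, log scale) against the CpG dinucleotides in its 300-base promoter window (x axis), by role. Points on the lowest line are starts inside a BRG1 peak, in 12 of 28 members; 4 of 5 Frizzled starts are there, and FZD9 is not.

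No member window held the TCF/LEF motif CTTTGAT, the AP-1 motif TGANTCA or the E-box CACGTG, each searched on both strands, against 1.98%, 6.15% and 8.34% of all windows. This says only that these letters are not in these 34 windows.

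An SNF5 peak lay within 1 Mb of 32 of the 38 members (84.2%), near the 82.2% of all genes. The other 6, WNT5A, WNT7A, WNT7B, FZD3, FZD10 and CTNNB1, lie where that list is thin. No SNF5 peak lay on chromosome 3 before position 53347572, which leaves WNT7A 39467501 bp and CTNNB1 12107129 bp from the nearest, nor on chromosome 8 before 47659525, which leaves FZD3 19085267 bp away. Chromosome 22, with WNT7B, held 2 SNF5 peaks in all, 0.443 per 100 protein-coding genes against 32.4 over all chromosomes. BRG1 was thinner there too, at 70.1 peaks per 100 genes against 257. The part of these gaps in the counts by gene was not tested. Over the 32 members with an SNF5 peak within 1 Mb, BRG1 named 26 (81.2%, against 69.2% of all such genes) and BRM 17 (53.1%, against 57.0%). SNF5 named 8 (25.0%, against 23.9%). These genes were picked by SNF5 peaks, so the SNF5 counts, 8 members and 3935 genes, stayed as before and say nothing about the gaps.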

How the data were processed

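The authors sequenced immunoprecipitated chromatin of RWPE1 cells. The deposited lists, 1 each for BRG1, BRM and SNF5 in SCHLAP1 cells, give each peak's start, end and width in bp, its place, its nearest TSS and the distance to it in bp, per the file headers. They hold no counts, scores or p-values. Per the submitters' processing notes the build was hg38 and the tools were MACS2, Bowtie2, SAMtools and deepTools 2.5.2. What each did, the peak threshold, the filter and any pooling of replicates is not given in the sources used here. Each distance is counted from the middle of a peak: 74.3% of 19937 pairs of meeting BRG1 and BRM peaks with the same gene point to 1 TSS (within 1 bp) that way, and 0.532% from the nearer edge.

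Peaks were selected by nearest TSS. Peaks met when they shared 1 bp or more, and shares have Clopper-Pearson (exact) intervals at 95%. These intervals treat genes, peaks or windows as independent trials, which they are not. With 1 list per subunit no test was run, and counts are set beside the same share over all 20033 protein-coding genes, 22198 RefSeq windows or the whole list. Genes and synonyms, spans and promoter sequences are from RefSeq tables of GRCh38.p14, which matched all 38 members and gave a promoter window for 28. Named with values were all members, with the position of the widest BRG1 peak of at least 1000 bp and of the SNF5 peaks. Windows were printed for members with promoter peaks in all 3 lists and for the first 2 in the alphabet with a window that no list named. The members, the other pathway lists and the markers were chosen with earlier results of these data known, and the window and GC comparisons after seeing the values. Alternatives changed the overlap rule, the promoter distance, peak width, list length, the gene span and the members. The overlap and naming routines were tested on simulated data. Scripts ran under Python 3.11.15 with pandas 2.3.3, numpy 2.4.6, matplotlib 3.10.9 and scipy 1.17.1. The histone marks and the inputs were not analysed here.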

Additional observations from a re-analysis of the deposited data

How the results depend on the processing

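Of 65 alternative values for 17 results, 43 kept within 1.5 times of a count or within the interval of a share, and 22 did not. With as many of the widest peaks as the shortest list holds, 11 genes were named by BRG1 and 7 by BRM, and promoter peaks named 7 and 6; of BRG1 peaks 62.5% met BRM and 31.2% met SNF5, and 66.7% of SNF5 peaks met BRG1. With the wider 50% of each list, SNF5 named 3 genes, promoter peaks of BRM named 9 and of SNF5 3, and 100% of the 3 SNF5 peaks left were at promoters. A peak covering a RefSeq start was found for 12 of 28 members in the BRG1 list, 8 in the BRM list and 1 in the SNF5 list. These counts leave out the 10 members without a RefSeq promoter window, among them LRP6, FZD2 and FZD3 with BRG1 promoter peaks. Their base thus differs from the 38 genes of the main counts. Under a reciprocal overlap of 50%, 19.8% of BRG1 peaks met BRM and 0% met SNF5, 38.6% of BRM peaks met BRG1, and 0% of SNF5 peaks met BRG1 and 0% BRM, since SNF5 peaks are much narrower. Counting peaks within 1 kb as met, 53.2% of BRG1 peaks met BRM. With promoters taken to 3 kb, 56.8% of BRG1 and 64.9% of BRM peaks were at promoters. Leaving out the member with the most peaks moved no promoter share or median width beyond these limits. The count over members with an SNF5 peak within 1 Mb was chosen after seeing the data. Its SNF5 values, 8 genes named and 5 by promoter peaks, are among the 43 but could not move, since SNF5 peaks picked the members. No paired analysis was possible because each subunit has 1 peak list with no values per sample, and for the same reason no replicate could be left out.

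Peak lists without depth limit every statement to called peaks. A missing peak, a narrow peak and a list's length all move with sequencing depth, which is unknown here, and the narrowest peaks of the lists are 331 (BRG1), 310 (BRM) and 151 bp (SNF5). Naming by the nearest TSS misses FZD4 and FZD7, and also WNT8B, whose peaks were named for SEC31B.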

Other observations

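The other genes of the pathway, on a list of 57 set together with the members, were named by BRG1 in 45 cases (78.9%, 66.1 to 88.6; 63.4% of all genes), by BRM in 35 (61.4%, 47.6 to 74.0; 49.5%) and by SNF5 in 13 (22.8%, 12.7 to 35.8; 19.6%), and 11 had no peak (19.3%, interval 10 to 31.9; 33.7%). The background lay outside the interval for BRG1 and for genes without a peak, and within it for BRM and SNF5. In the groups that follow, counts are given as BRG1, BRM and SNF5 and are to be read against these same shares of all genes. Nuclear cofactors of the pathway were all named by BRG1, 9 of 9, with BRM at 7 and SNF5 at 5 (interval 21.2 to 86.3%). Their peaks were among the widest: 6335 bp at the promoter of BCL9L, 4399 bp at TLE1, 3524 bp at TLE4 and 3125 bp at TLE3, the last 3 encoding Groucho-type corepressors. Cytoplasmic components were named in 10, 7 and 5 of 11 cases, with BRG1 peaks of 3007 bp at CSNK1A1, 2191 bp at DVL1, 2099 bp at BTRC and 2004 bp at GSK3B. NKD2 had no peak.

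Secreted inhibitors and their receptors were named by BRG1 in 8 of 15 cases (53.3%, 26.6 to 78.7), by BRM in 5 (33.3%, 11.8 to 61.6) and by SNF5 in 0 (an upper bound of 21.8%), so all 3 backgrounds lay within the intervals. DKK1, which blocks LRP5 and LRP6, was the widest with a promoter peak of 2618 bp, before DKK3 (1350 bp), KREMEN2 (1341 bp) and SFRP1 (896 bp), while DKK2 and DKK4 had no peak. R-spondins and their receptors were named in 7, 6 and 1 of 9 cases, LGR6 with 12 BRG1 peaks and RNF43, a ligase that removes Frizzled receptors, with 13. The widest BRG1 peaks were 2469 bp at LGR6, 2162 bp at RNF43, 2099 bp at LGR4 and 949 bp at RSPO4, and RSPO1 and ZNRF3 had none. Alternative receptors and planar polarity genes were named in 10, 9 and 1 of 11 cases, with BRG1 peaks of 3593 bp at CELSR2, 2397 bp at VANGL1, 2222 bp at PTK7 and 1864 bp at VANGL2; CELSR3 had no peak. Of the secretion genes WLS was named by each list, with 11 BRG1 peaks, and PORCN by none. The differences between these groups were not tested.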
